A study of Arabidopsis thaliana with 4 samples.

Results

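The genes described here encode the proteins of ribosomes and are carried in the nucleus of *Arabidopsis thaliana*. They were chosen from the TAIR10.1 annotation as nuclear protein-coding genes whose product text holds the words ribosomal protein, leaving out kinases, methyltransferases and acetyltransferases. The annotation holds 343 such genes, and 170 of them lie in the 7 stretches of the genome where the deposited read positions match this assembly, among 16873 genes in all. Of the 170, 93 encode proteins of the cytosolic ribosome, 13 of the plastid ribosome and 28 of the mitochondrial ribosome. A further 12 could not be placed in a compartment, and 24 only share a domain or a name with ribosomal proteins, such as translation elongation factor EF1B subunits. The rule used no measured value.

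The samples were mRNA-Seq libraries from leaves of plants 3 weeks old grown in long days, in the Col-0 ecotype, with 1 library for each of 4 genotypes. One library came from *suvr5-1 ldl1-2 ldl2* plants, called the triple mutant here, one from *ldl1-2 ldl2*, one from *suvr5-1* and one from wild type Col-0. SUVR5 is a zinc finger SET domain protein that the study linked to H3K9 dimethylation, and LDL1 and LDL2 are related histone H3K4 demethylases. The triple mutant carried the alleles of both other mutants. With 1 library per genotype the spread between plants is unknown for all values below, and Fisher's exact test speaks of the pair of libraries it was given rather than of the genotypes. The 3 mutants were set against the same Col-0 library, so their comparisons are not independent of each other.

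The cytosolic ribosome of plants has a small 40S and a large 60S subunit, and each protein is usually encoded by a small family of near-duplicate genes that are expressed together. Growing and dividing tissues hold much of this mRNA, and loss of single copies in Arabidopsis gives pointed first leaves, altered leaf polarity or arrested embryos. Plastids and mitochondria have bacterial-type ribosomes, and most of their proteins are encoded in the nucleus and imported, while the rest are encoded in the organelle's own genome.

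Reads on genes of the stretches, summed over genes, numbered between 2719739 in *ldl1-2 ldl2* and 4736148 in *suvr5-1*. In these sums a read start on exon bases shared by genes counts for each of them. *LDL2*, the only mutated gene inside the stretches, had 5 reads in the triple mutant and 8 in *ldl1-2 ldl2*, against 26 in *suvr5-1* and 25 in Col-0. The leaf label was checked with 12 photosynthesis genes, which took 10.0% of the reads on genes in the triple mutant, 14.5% in *ldl1-2 ldl2* and 16.4% in *suvr5-1*, against 15.9% in Col-0. The 6 seed storage genes had 0 to 3 reads in a library. The 8 genes of dividing cells, of which the cyclin gene *CYCB3;1* was at 0 throughout, had 47, 18 and 43 reads in the triple mutant, *ldl1-2 ldl2* and *suvr5-1*, against 12 in Col-0. The 4 flower genes together had 68, 70 and 41 reads in these mutants, against 21 in Col-0. Of these, *AG* and *PI* were at 0 in Col-0, and *PI* was also at 0 in *ldl1-2 ldl2*. *SEP1* had 33, 9 and 0 reads, against 16 in Col-0, and *SEP3* had 15, 51 and 28, against 5 in Col-0. *PYK10*, the root gene of the list, had 7 to 14 reads. AT2G01010, a ribosomal RNA gene, took between 0.0334% and 0.0614% of the reads in the mutants and 0.670% in Col-0. The 2 copies of the inverted repeat of the chloroplast genome held no read start in any library.

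The promoters of cytosolic ribosomal protein genes in Arabidopsis are known for the telo box, AAACCCTA, and for site II elements, TGGGCC or TGGGCT. Both were searched on both strands, where site II matches of the 2 strands can overlap, in the TAIR10.1 sequence from 250 bases before to 50 bases after each annotated gene start. The telo box was present in 52 of the 93 cytosolic windows (55.9%), in 2 of the 13 plastid and in 5 of the 28 mitochondrial windows, and in 6.36% of the windows of all 13271 protein-coding genes of the stretches. A site II element was present in 73 cytosolic (78.5%), 7 plastid (53.8%) and 19 mitochondrial windows (67.9%), against 22.5% of all protein-coding windows. Both elements together were found in 45 cytosolic windows (48.4%), in 4 mitochondrial and in no plastid window, against 2.245% of all protein-coding windows. The octamer TACTAGTA, a motif bound by the zinc fingers of SUVR5 in the study, was in no cytosolic and no plastid window, in 1 mitochondrial window and in 0.844% of all protein-coding windows. A match is a run of letters and not a mapped binding site. The study also searched promoters with a matrix of letter frequencies and took binding signal over longer upstream regions. Its shares are therefore not comparable with those of the exact octamer here. At 0.844% of all windows, the absence of the octamer from 93 windows says little about the cytosolic members.

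To show how these letters lie, the 200 bases before the start are printed for the 4 cytosolic, 2 plastid and 1 mitochondrial members with the highest mean level, 5′ to 3′ on the gene's strand (RefSeq, TAIR10.1), with telo boxes and site II elements of either strand in capitals.
AT5G20290 chr5:6853107-6853306, minus strand: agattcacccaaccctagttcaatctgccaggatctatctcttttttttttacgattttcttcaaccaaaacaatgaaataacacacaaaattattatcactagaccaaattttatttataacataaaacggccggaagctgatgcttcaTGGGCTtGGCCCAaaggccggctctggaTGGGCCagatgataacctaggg
emb2171 (AT3G04400) chr3:1167050-1167249, plus strand: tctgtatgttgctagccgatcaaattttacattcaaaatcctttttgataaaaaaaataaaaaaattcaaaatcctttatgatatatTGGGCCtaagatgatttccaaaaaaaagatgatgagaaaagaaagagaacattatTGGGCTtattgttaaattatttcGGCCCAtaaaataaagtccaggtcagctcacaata
emb2386 (AT1G02780) chr1:609535-609734, minus strand: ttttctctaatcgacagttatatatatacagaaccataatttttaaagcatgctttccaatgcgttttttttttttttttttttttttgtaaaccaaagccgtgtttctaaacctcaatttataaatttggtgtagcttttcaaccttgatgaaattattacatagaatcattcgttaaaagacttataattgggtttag
AT4G27090 chr4:13595253-13595452, minus strand: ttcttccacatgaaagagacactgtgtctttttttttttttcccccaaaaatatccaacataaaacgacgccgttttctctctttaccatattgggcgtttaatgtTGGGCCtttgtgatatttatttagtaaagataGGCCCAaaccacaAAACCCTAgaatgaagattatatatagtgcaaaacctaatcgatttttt
emb2394 (AT1G05190) chr1:1503854-1504053, minus strand: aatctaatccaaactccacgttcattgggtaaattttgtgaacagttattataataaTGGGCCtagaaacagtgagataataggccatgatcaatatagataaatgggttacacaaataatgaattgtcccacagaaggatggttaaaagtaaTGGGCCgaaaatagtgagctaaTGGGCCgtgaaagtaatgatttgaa
AT1G29070 chr1:10149591-10149790, plus strand: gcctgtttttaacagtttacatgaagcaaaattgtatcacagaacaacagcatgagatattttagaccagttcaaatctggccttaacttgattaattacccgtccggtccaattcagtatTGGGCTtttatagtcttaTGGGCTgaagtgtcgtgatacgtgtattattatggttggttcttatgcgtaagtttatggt
AT1G16740 chr1:5727422-5727621, plus strand: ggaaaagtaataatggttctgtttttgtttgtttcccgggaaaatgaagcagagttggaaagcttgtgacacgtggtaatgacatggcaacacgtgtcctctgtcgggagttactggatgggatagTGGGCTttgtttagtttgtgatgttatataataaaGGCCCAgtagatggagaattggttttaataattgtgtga
The first 2 genes carry 3 site II matches each, AT4G27090 carries 2 and a telo box, and emb2386 carries neither in these 200 bases. The plastid genes emb2394 and AT1G29070 carry 3 and 2 site II matches, and the mitochondrial gene AT1G16740 carries 2. Among cytosolic members, matches to site II had a median distance of -47.0 bases from the start, against -75.0 over all protein-coding genes, and telo boxes one of 0.0, against -49.0.

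**Figure D1:**
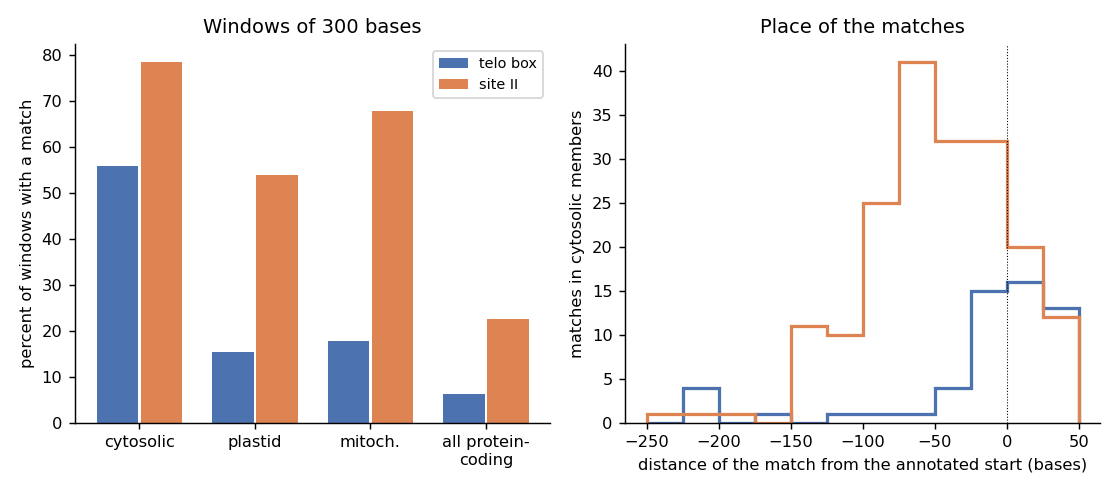
Promoter elements of the ribosomal protein genes. Left, percent of windows (from 250 bases before to 50 after the annotated start) with a telo box (blue) or a site II element (orange), for 93 cytosolic, 13 plastid and 28 mitochondrial members and 13271 protein-coding genes; right, number of matches in cytosolic members by distance from the start, in bins of 25 bases. Telo boxes are in 55.9% of cytosolic windows and 6.36% of all, and they lie nearer the start than site II elements.

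Levels are given in RPKM, the reads on the merged exons per kilobase, scaled by the library's reads on genes. In Col-0 the 93 cytosolic members had a median of 232 RPKM, the 13 plastid members 411 RPKM and the 28 mitochondrial members 23.3 RPKM, against 2.44 RPKM for all genes. Of the 170 members 8 had no read in any library and 5 had fewer than 20 over the 4 libraries, which left 157. The 5 cytosolic members without a read were AT1G12960 (L27a), AT3G10950 (L37a), AT4G16030 (L19) and AT1G33850 and AT5G09490 (both S15). AT5G14290 (L37) was the mitochondrial one, and 2 were unplaced. AT5G24510, a P1 acidic stalk protein, had 4 reads in the triple mutant and none in the other libraries. Repeats elsewhere in the genome cover over 10% of the exon positions of 15 members, and another gene shares over 50% of the exon bases of 8, so the values of these are uncertain.

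The most abundant cytosolic members were AT5G20290 (S8 of the small subunit), emb2171 (L23), emb2386 (L19), AT4G27090 (L14) and AT3G11510 (S14). The gene of S8 had 915 RPKM in the triple mutant, 642 in *ldl1-2 ldl2* and 870 in *suvr5-1*, against 839 in Col-0. The gene of L14 had 679, 549 and 699 RPKM in these mutants, against 878 in Col-0. The gene of S14 had 618, 384 and 628 RPKM, against 742 in Col-0. In these 3 genes the *ldl1-2 ldl2* library was the lowest of the 4, and the Col-0 library was the highest for L14 and S14.

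As a group, cytosolic ribosomal protein mRNA was lowest in *ldl1-2 ldl2*. The 93 genes took 2.34% of the reads on genes in the triple mutant, 1.74% in *ldl1-2 ldl2* and 2.34% in *suvr5-1*, against 2.53% in Col-0, with 95% Wilson intervals, which cover counting error only, of 2.32% to 2.35%, 1.73% to 1.76%, 2.33% to 2.35% and 2.51% to 2.55%. The 13 plastid genes took 0.305% in the triple mutant, 0.382% in *ldl1-2 ldl2* and 0.585% in *suvr5-1*, against 0.518% in Col-0. The 28 mitochondrial genes took 0.0985%, 0.0725% and 0.0968% in the mutants, against 0.0916% in Col-0. The cytosolic and mitochondrial groups were thus lowest in the double mutant and the plastid group in the triple mutant. In whole leaves, fewer cells of a type and less RNA per cell cannot be told apart.

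**Figure D2:**
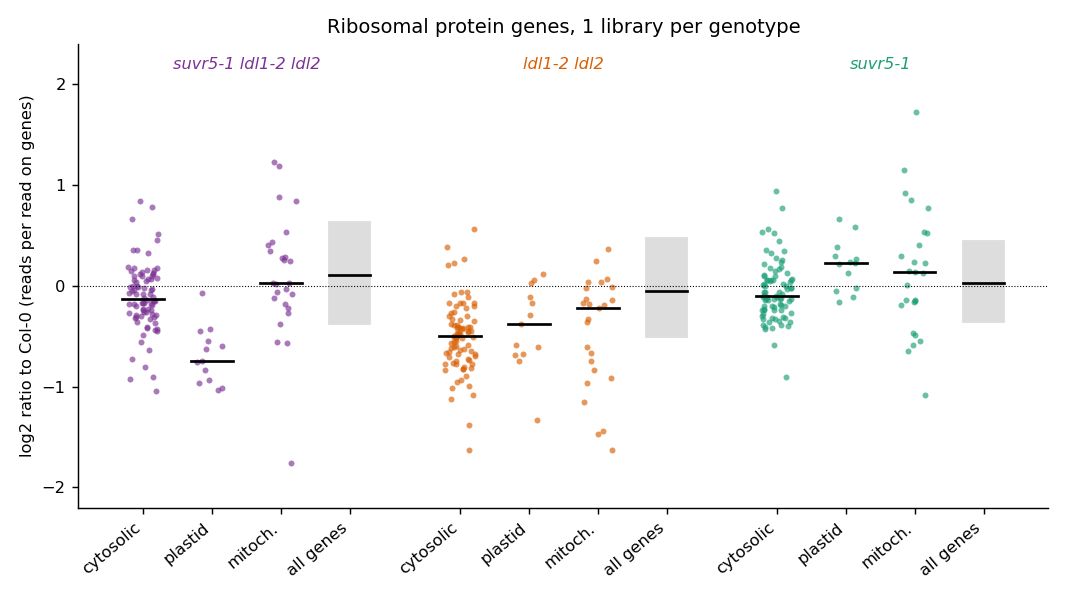
Log2 ratio of each mutant library to the Col-0 library for cytosolic, plastid and mitochondrial members with at least 20 reads over both libraries (points; horizontal bars are medians), beside the quartiles and median of all genes with as many reads (grey box and bar). Cytosolic members lie lowest in *ldl1-2 ldl2* (median -0.50) and plastid members lowest in the triple mutant (median -0.75).

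In *ldl1-2 ldl2* the cytosolic members lay below Col-0 almost throughout. Of 84 members with at least 20 reads over both libraries, 79 were below and 5 above, with a median log2 ratio of -0.50 and quartiles of -0.71 and -0.34, while the 8550 genes with as many reads had a median of -0.05 and quartiles of -0.50 and 0.47. A gene was called when its ratio passed 1.5 fold in either direction and its adjusted P (Fisher's exact test, two-sided, adjusted by Benjamini-Hochberg over all genes with a read) was under 0.01. By this rule 32 of the 86 cytosolic members with a read were lower and 0 were higher, against 10.9% of all 11726 genes tested that were called lower and 12.3% called higher. Small subunit members had a median of -0.56 (14 of 38 called lower), large subunit members one of -0.49 (16 of 49) and the 6 proteins of the P stalk, which recruits elongation factors, one of -0.40 over the 5 with enough reads (2 called lower). *ldl1-2 ldl2* was the lowest of the 4 libraries for 68 of the 85 cytosolic members with at least 20 reads over all 4, and Col-0 was the lowest for 2.

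The size of this difference depended on how reads that start at the same position were treated. Counting such duplicate reads once for each position and strand moved the cytosolic median to -0.26 and that of all genes to -0.22, and left 5 cytosolic members called lower. Calls lower over all genes fell in the same step from 1276 of 11726 tested to 587. Distinct positions made up 24.6% of the reads on cytosolic members in *ldl1-2 ldl2* and 27.2% in Col-0, while over all protein-coding genes they made up 21.02% and 28.6%. The part of such duplicate reads in the difference was not tested. A beta-binomial test that assumes a dispersion of 0.1 between plants called no cytosolic member in any of the 5 comparisons, and 66 of all genes higher and 13 lower in this one. All 39 calls against Col-0 of the members chosen by the naming rule were lost under that test, and 27 of them with each position counted once.

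**Figure D3:**
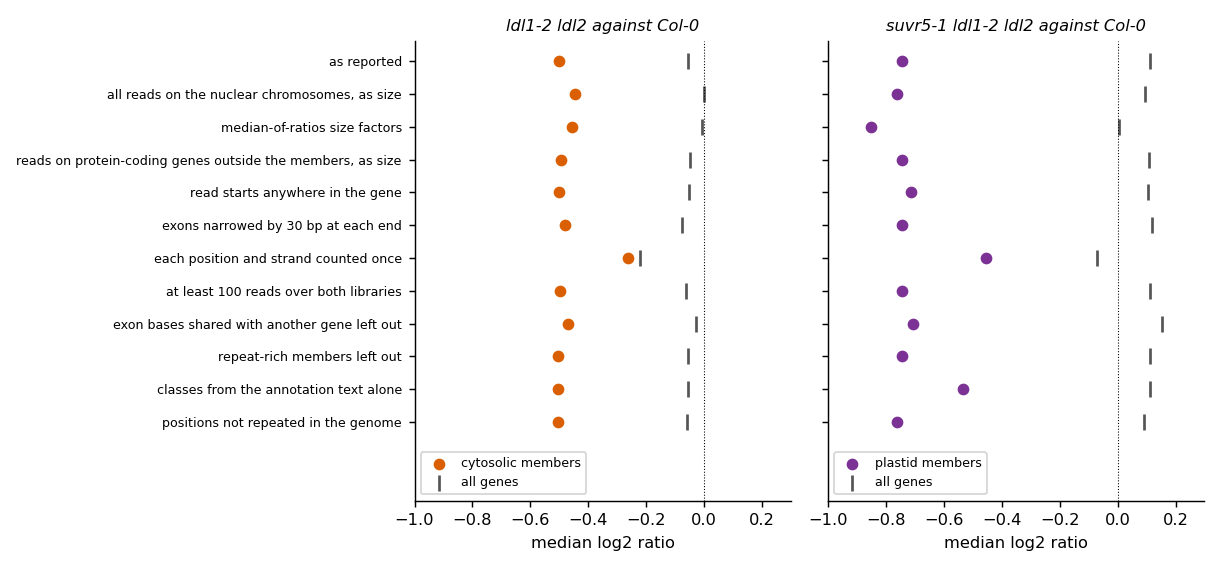
Median log2 ratio of cytosolic members in *ldl1-2 ldl2* against Col-0 (left, orange) and of plastid members in the triple mutant against Col-0 (right, purple) under each way of counting and scaling, with the median of all genes as a grey bar. The cytosolic median is -0.50 as reported and -0.26 with each position counted once, where that of all genes is -0.22; the plastid median lies between -0.85 and -0.45.

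Among members with at least 100 reads over both libraries, the minimum used for all rankings of cytosolic ratios here, those with the lowest ratios in *ldl1-2 ldl2* were AT5G22440 (L10a), *PFL* (AT1G22780, an S18 gene named for the pointed first leaves of its mutant) and AT3G09200 (P0, the base of the stalk). *PFL* had 444 reads in the triple mutant, 166 in *ldl1-2 ldl2* and 614 in *suvr5-1*, against 489 in Col-0. Read numbers are not scaled for library size, and its scaled level in *suvr5-1* was 0.813 times that in Col-0 (0.721 to 0.918). Its level in *ldl1-2 ldl2* was 0.383 times that in Col-0 (95% exact interval 0.319 to 0.458, adjusted P = 1.71e-28 by Fisher's exact test), and it was 0.887 times Col-0 in the triple mutant (adjusted P = 0.142). AT3G09200 had 2723 reads in the triple mutant, 1242 in *ldl1-2 ldl2* and 3489 in *suvr5-1*, against 3043 in Col-0, and its ratio in *ldl1-2 ldl2* was 0.460 (0.431 to 0.492). AT5G22440 had 111, 42 and 217 reads, against 147 in Col-0, and a ratio of 0.322 (0.223 to 0.457). In all 3 genes *ldl1-2 ldl2* was the lowest library.

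By the same minimum, the highest cytosolic ratios in *ldl1-2 ldl2* were those of RPL18AA (AT1G29970), AT4G10450 (L9) and AT3G02190 (L39), at log2 0.38, 0.27 and 0.23, and none passed the test (adjusted P from 0.086 to 0.39, Fisher's exact test). AT3G04770 (RPSAb, an SA protein of the small subunit), under that minimum with 38 reads in *ldl1-2 ldl2* and 29 in Col-0, was at log2 0.56 (adjusted P = 0.214, Fisher's exact test). Of the 5 most abundant cytosolic genes emb2171 lay nearest to Col-0, with 758 RPKM in *ldl1-2 ldl2* and 856 in Col-0, a ratio of 0.886 (0.835 to 0.939).

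The cytosolic members of the triple mutant lay nearer to Col-0. Their median against Col-0 was log2 -0.13 over 84 members (28 above and 56 below), where all genes had 0.11, and 6 members were called lower and 3 higher, against 8.05% and 15.2% of the 12069 genes tested. Set directly against *ldl1-2 ldl2*, the triple mutant was higher at 72 of 84 cytosolic members with a median of 0.39, where all genes had 0.15. In that comparison 25 of 87 cytosolic members were called higher and 0 lower, against 15.4% and 8.77% of the 12020 genes tested. Counting each position once brought the cytosolic median of this last comparison to 0.06 and the calls higher to 3. Over all genes the median was then 0.16, and calls higher fell from 1851 to 620. Against *suvr5-1* the triple mutant had a cytosolic median of -0.04, with 1 member called higher and 3 lower, beside 15.5% and 8.69% of all genes tested.

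The single mutant *suvr5-1* was near Col-0. Its cytosolic median was -0.10 over 85 members (32 above and 53 below), where all genes had 0.03, and 1 member was called higher and 1 lower, against 9.5% and 8.63% of the 11773 genes tested. With all nuclear reads as the library size the median turned to 0.15, while that of all genes was 0.28. Small subunit members had a median of -0.13 (26 of 34 below Col-0) and large subunit members one of -0.02 (25 of 46 below).

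The 2 members called in *suvr5-1* were RPL10B (AT1G26910) and AT3G13580, a copy of L7. RPL10B, a lowly expressed copy of L10, had 42 reads in the triple mutant, 20 in *ldl1-2 ldl2* and 95 in *suvr5-1*, against 32 in Col-0, and its ratio in *suvr5-1* was 1.92 (1.28 to 2.97, adjusted P = 0.0045, Fisher's exact test). AT3G13580 had 414, 389 and 633 reads, against 768 in Col-0, with ratios of 0.526 in the triple mutant, 0.571 in *ldl1-2 ldl2* and 0.534 in *suvr5-1*. It was called lower in all 3 mutants, each set against the same Col-0 library. The next highest ratio in *suvr5-1* was that of AT1G07070 (L35a), with 42, 28 and 108 reads, against 41 in Col-0 (1.71, 1.18 to 2.51, adjusted P = 0.0124, Fisher's exact test), followed by RPL18AA (1.45, 1.17 to 1.81). Other low ratios in *suvr5-1* were those of AT3G09200 (0.743, 0.707 to 0.780) and AT3G04230, a copy of S16 (0.667, 0.536 to 0.831), and neither passed 1.5 fold.

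In the triple mutant the lowest cytosolic ratios besides AT3G13580 were those of AT3G11120 (L41) and AT4G34555 (S25). AT3G11120 had 200 reads in the triple mutant, 177 in *ldl1-2 ldl2* and 468 in *suvr5-1*, against 402 in Col-0, which gave ratios of 0.486, 0.497 and 0.754. AT4G34555 had 62, 59 and 148 reads, against 113 in Col-0, and ratios of 0.536, 0.589 and 0.848. The highest ratios were those of RPL18AA (1.79, 1.43 to 2.24), AT1G26880 (L34; 1.72, 1.49 to 1.99) and AT1G29965 (L18a; 1.58, 1.17 to 2.16). RPL18AA and AT1G29965 overlap on the same strand, so their reads cannot be told apart on the shared exons. AT1G29965 shares 81.3% of its exon bases, and on the rest its log2 ratio was -1.73 (adjusted P = 0.184, Fisher's exact test). AT1G26880 shares 39.6% of its exon bases with another gene.

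No member passed the stricter rule of 4 fold against Col-0 in any mutant, in either direction. Of all genes tested, 4.77% and 1.45% did so in the triple mutant (higher and lower), while *ldl1-2 ldl2* had 4.24% higher and 2.06% lower and *suvr5-1* had 2.58% higher and 1.83% lower.

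Among the copies analysed, the leading copy of a family was mostly the same in all libraries. Copies outside the stretches were not counted, so leads, sums and shares below are not those of whole families. The stretches hold 28 cytosolic families with 2 or more copies and at least 1 read (65 copies), and in 26 of them the same copy led in all 4 libraries. The summed level of the analysed copies was below Col-0 in 21 of 28 families in the triple mutant. It was below in 28 of 28 in *ldl1-2 ldl2* and 19 of 28 in *suvr5-1*. The share of a copy in its family differed from Col-0 by up to 5.885 percentage points in the median family. The families with the largest differences were L41, L7 and L18a.

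In family L7, AT2G01250 took 78.4% of the reads per kilobase of the analysed copies in the triple mutant. It took 70.9% in *ldl1-2 ldl2* and 76.2% in *suvr5-1*, against 65.2% in Col-0. The other analysed copy, AT3G13580, is the one described above. In family L41, AT3G08520 took 50.2%, 55.8% and 44.1%, against 39.5% in Col-0. Without repeated positions these L41 shares were 53.6%, 59.6% and 48.3%, against 43.1% in Col-0. In family L18a, AT3G14600 took 65.1%, 73.4% and 71.98%, against 77.5% in Col-0, with the overlap of the other copies as above.

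**Figure D4:**
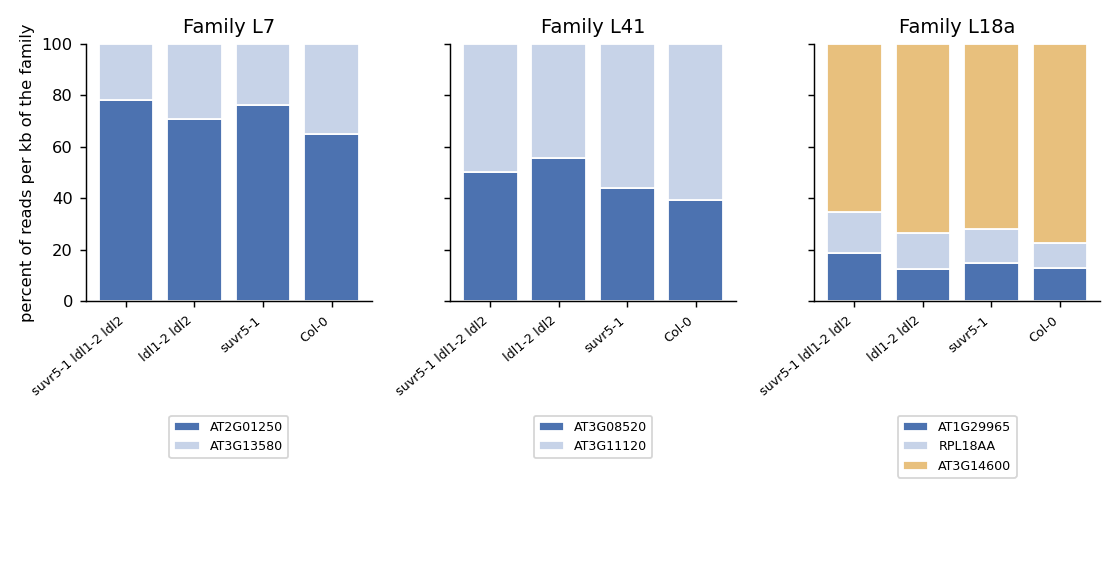
Share of the reads per kilobase of the analysed copies of a cytosolic family taken by each copy in the 4 libraries. Shown are the 3 families in which a copy's share differed most from Col-0, and copies outside the stretches are not counted. In L7 the share of AT2G01250 is 70.9% to 78.4% in the mutants and 65.2% in Col-0.

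Copies known from developmental mutants were below Col-0 in *ldl1-2 ldl2*, as were 79 of 84 cytosolic members (median log2 ratio -0.50), so this is not particular to them. The small subunit genes RPS13A (AT4G00100, pointed first leaves), RPS5A, RPS6 and EMB3010 (the 2 S6 genes, whose protein is phosphorylated downstream of TOR) had ratios in *ldl1-2 ldl2* of 0.653, 0.785, 0.560 and 0.596. RPS6 had 314 RPKM in the triple mutant, 155 in *ldl1-2 ldl2* and 334 in *suvr5-1*, against 276.5 in Col-0. Among large subunit genes, SAC52 (L10, named for a suppressor of the acaulis5 dwarf) had a ratio of 0.704 in *ldl1-2 ldl2*, PGY2 (L9, leaf polarity) 0.673, and the 2 L4 genes AT3G09630 and AT5G02870 had 0.711 and 0.686. None of these 4 passed 1.5 fold in *ldl1-2 ldl2*, and neither did RPS5A or RPL10B (0.705, adjusted P = 0.406, Fisher's exact test). In the triple mutant SAC52, PGY2 and the 2 L4 genes had ratios of 1.08, 0.821, 1.11 and 1.06. PGY2 and the neighbouring L9 copy AT1G33120 are repeated elsewhere in the genome over 60.2% and 55.2% of their exon positions. The 2 copies of the chloroplast inverted repeat held no read start in any library. Repeated positions of cytosolic members did hold reads, with 567 per kilobase in Col-0, against 839 at their other positions. In the triple mutant, *ldl1-2 ldl2* and *suvr5-1* they held 534, 403 and 899 per kilobase, against 794, 511 and 1196. How reads that match near-identical copies were treated was not tested, so the levels of these copies are uncertain.

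The plastid members showed another order of libraries. All 13 lay below Col-0 in the triple mutant, with a median log2 ratio of -0.75 and quartiles of -0.94 and -0.54, and 9 were called lower and 0 higher, against 8.05% and 15.2% of all genes tested. In *ldl1-2 ldl2* 10 of 13 lay below, with a median of -0.37 and 6 called lower, against 10.9% of all genes. In *suvr5-1* 9 of 13 lay above Col-0, with a median of 0.22, 2 called higher and 0 lower, against 9.5% and 8.63% of all genes. The triple mutant was the lowest library for 11 of the 13 and *ldl1-2 ldl2* for the other 2, while *suvr5-1* was the highest for 9 and Col-0 for 4. Against *suvr5-1*, the triple mutant was lower at all 13 members (median -0.90, 11 called, beside 8.69% of all genes called lower), and against *ldl1-2 ldl2* at 11 of 13 (median -0.34, 2 called, beside 8.77% of all genes). With each position counted once the triple mutant still had a median of -0.45 against Col-0, where all genes had -0.07.

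The plastid member with the highest level was emb2394 (AT1G05190, L6, needed for embryo development). It had 486 RPKM in the triple mutant, 613 in *ldl1-2 ldl2* and 877 in *suvr5-1*, against 978 in Col-0, and its ratio in the triple mutant was 0.496 (0.467 to 0.527, adjusted P = 2.96e-120, Fisher's exact test). With each position counted once its log2 ratio was -0.42, short of 1.5 fold, and the beta-binomial test gave an adjusted P of 0.767. AT1G29070 (L34) had 447, 522 and 1018 RPKM, against 677 in Col-0, so it was higher in *suvr5-1* (ratio 1.504) and lower in the triple mutant (0.660). PSRP6, a plastid-specific protein of the large subunit, had 407, 565 and 725 RPKM, against 554 in Col-0, and PRPS20 (S20) had 290, 415 and 541, against 448 in Col-0. For these 4 genes the triple mutant was the lowest library.

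RFC3 (AT3G17170, an S6-like protein named for fatty acid composition) had 102 reads in the triple mutant, 72 in *ldl1-2 ldl2* and 291 in *suvr5-1*, against 204 in Col-0, and ratios of 0.488, 0.398 and 0.924. EMB3136 (L10) had 342, 358 and 570 RPKM, against 577 in Col-0. Of its exon bases 69.2% are shared with another gene. Of the photosynthesis genes, all 12 lay below Col-0 in the triple mutant, with a median log2 ratio of -0.55 (all genes 0.11). There 5 were called lower, against 8.05% of all genes tested. In *ldl1-2 ldl2* 9 of 12 lay below, with a median of -0.19 (all genes -0.05). There 1 was called lower, against 10.9% of all genes tested. The median in *suvr5-1* was 0.01 (all genes 0.03). The part of this difference in the values above was not tested.

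**Figure D5:**
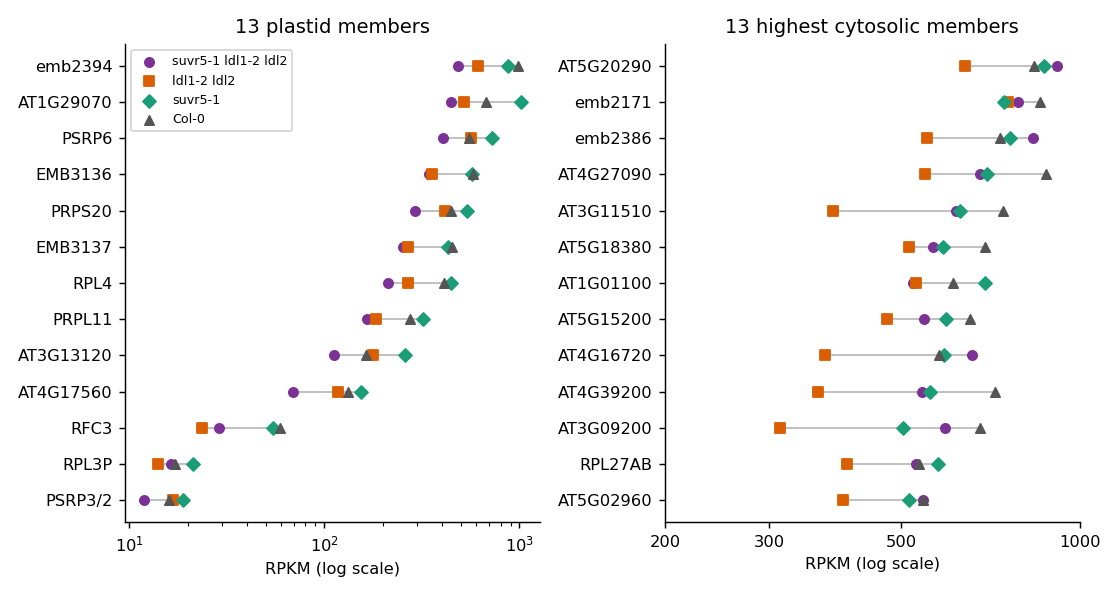
Level (RPKM, log axis) of the 13 plastid members (left) and the 13 most abundant cytosolic members (right) in the triple mutant (purple circles), *ldl1-2 ldl2* (orange squares), *suvr5-1* (green diamonds) and Col-0 (grey triangles), with a line over the range of each gene. Most plastid genes are lowest in the triple mutant, as emb2394 is with 486 RPKM against 978 in Col-0, and most cytosolic genes are lowest in *ldl1-2 ldl2*.

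The mitochondrial members lay lowest in *ldl1-2 ldl2*. Of 25 with enough reads, 20 lay below Col-0 there, with a median of -0.22, and 8 of the 27 tested were called lower and 0 higher, against 10.9% and 12.3% of all genes tested. Medians were 0.03 in the triple mutant (3 called higher and 1 lower, against 15.2% and 8.05% of all genes) and 0.13 in *suvr5-1* (5 higher and 1 lower, against 9.5% and 8.63%). Against *ldl1-2 ldl2* the triple mutant was higher at 22 of 26, with a median of 0.51. The 28 genes together had 3093 reads in the triple mutant, 1972 in *ldl1-2 ldl2* and 4583 in *suvr5-1*, against 2809 in Col-0, so single values carry wide intervals. Placed from the annotation text alone, 3 members remain with enough reads for this last median, which is then 0.28.

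AT1G16740 (L20), the highest of them, had 139 RPKM in the triple mutant, 110 in *ldl1-2 ldl2* and 120 in *suvr5-1*, against 168 in Col-0. MRPL11 went the other way with 104, 105 and 100 RPKM, against 81.7 in Col-0, and AT4G39880 (L23) had 67.6, 42.6 and 80.0 RPKM, against 46.7 in Col-0. Among organellar members with at least 50 reads over both libraries, the lowest ratios in *ldl1-2 ldl2* were 0.322 (0.164 to 0.593) for AT4G21460 (S24/S35) and 0.361 (0.192 to 0.645) for AT1G16870 (S29), with 14 and 16 reads in that library, against 49 and 50 in Col-0. Repeats cover 18.2% of the exon positions of AT4G21460. AT3G18760 (S6) had 91 reads in the triple mutant, 40 in *ldl1-2 ldl2* and 106 in *suvr5-1*, against 38 in Col-0, and a ratio of 2.34 in the triple mutant (1.59 to 3.51). The next highest there by the same minimum was AT4G37660 (L12), with 106, 44 and 125 reads, against 56 in Col-0, and a ratio of 1.85 (1.33 to 2.60). It shares 42.1% of its exon bases with another gene.

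*HLL* (AT1G17560), the mitochondrial L14 needed for growth of the ovule integuments, had 21 reads in the triple mutant, 2 in *ldl1-2 ldl2* and 46 in *suvr5-1*, against 9 in Col-0. Its ratio was 3.31 in *suvr5-1* (1.60 to 7.69) with an adjusted P of 0.00216 by Fisher's exact test (0.69 by the beta-binomial test, and 0.437 by Fisher's exact test with each position counted once), while it was 0.251 in *ldl1-2 ldl2* (0.0264 to 1.21, adjusted P = 0.148). NFD1 (L21, needed for fusion of nuclei in gametes) had 36, 17 and 38 reads, against 52 in Col-0, and RPS2 had 106, 46 and 86, against 87 in Col-0. These 2 had the lowest organellar ratios in *suvr5-1*, at 0.473 (0.303 to 0.733) and 0.640 (0.470 to 0.873). AT5G15220 (L27) had 38, 27 and 106 reads, against 31 in Col-0, and a ratio of 2.22 in *suvr5-1* (1.47 to 3.42).

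Among the 12 members with no compartment, SSR16 (S16) was the most abundant. It had 1306 RPKM in the triple mutant, 1944 in *ldl1-2 ldl2* and 2542 in *suvr5-1*, against 2459 in Col-0, and AT5G24490, annotated as a 30S protein, had 280, 534 and 567 RPKM, against 623 in Col-0. Both were lowest in the triple mutant, with log2 ratios of -0.91 and -1.15 in the triple mutant. The 24 domain-sharing members had medians of -0.07, -0.18 and -0.04 in the triple mutant, *ldl1-2 ldl2* and *suvr5-1*.

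The 2 lists of genes that work with ribosomes, taken from the product text, stand here beside the members. Of 45 translation factors, 35 with enough reads had a median of -0.18 in *ldl1-2 ldl2* (7 called lower and 1 higher of 41 tested), and the medians were 0.11 in the triple mutant and 0.07 in *suvr5-1*. Of 37 ribosome biogenesis genes, 29 had a median of -0.21 in *ldl1-2 ldl2* (8 lower and 1 higher of 33 tested), with medians of -0.07 in the triple mutant and -0.23 in *suvr5-1*. Over all genes 10.9% were called lower and 12.3% higher in *ldl1-2 ldl2*, and the medians were -0.05 there, 0.11 in the triple mutant and 0.03 in *suvr5-1*. FIB2 (fibrillarin 2, a methyltransferase of ribosomal RNA in the nucleolus) had 109 reads in the triple mutant, 22 in *ldl1-2 ldl2* and 173 in *suvr5-1*, against 124 in Col-0. It was chosen after its values were seen. Its log2 ratio was -0.22 in the triple mutant, -2.32 in *ldl1-2 ldl2* and -0.15 in *suvr5-1*.

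The place of reads along the members was compared as a sign of RNA quality. The median over genes of the mean position of reads on cytosolic members, from 0 at the 5′ end to 1 at the 3′ end of the exons, was 0.529 in the triple mutant, 0.526 in *ldl1-2 ldl2* and 0.539 in *suvr5-1*, against 0.557 in Col-0, where all protein-coding genes had 0.641 to 0.663. Introns held 2.93%, 3.28% and 2.58% of the reads on cytosolic members with introns, against 2.52% in Col-0. Cytosolic members with and without a telo box had medians of -0.50 and -0.51 in *ldl1-2 ldl2*, and those with and without site II elements -0.50 and -0.50.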

How the data were processed

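RNA was extracted from leaves with Trizol, treated with DNase and selected for poly(A), and Illumina libraries were made, 1 for each of 4 genotypes. Bowtie is the tool named in the submitters' processing notes; its version, its settings and the assembly are not given in the sources used here. The files the authors deposited hold 1 line per mapped read (chromosome, strand, position) and no other value, so every count of reads, RPKM, ratio and log2 value was computed here. Read starts fitted the internal exons of TAIR10.1 best at displacements of 1 to 7 bp within the 7 stretches used, and genes elsewhere were not analysed here. Read starts were counted on merged exons without strand and scaled by the reads on genes, 2719739 to 4736148 per library. This total is the sum over genes, in which a read start on shared exon bases counts for each gene. Shares carry Wilson intervals and ratios exact binomial intervals, both at 95% and covering counting error only. Fisher's exact test and the beta-binomial test were run with scipy 1.17.1 in Python 3.11.15 and were tested on simulated data. Medians are over members with at least 20 reads over both libraries.

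The members and lists were chosen with earlier results of these data known. Of the 170 members 101 were placed by the annotation text and 69 by the nomenclature of ribosomal proteins where the text gives no compartment, a departure from the planned rule. Named genes are the 5 cytosolic, 5 plastid and 3 mitochondrial members with the highest mean RPKM, the 3 highest and 3 lowest cytosolic ratios (at least 100 reads) and the 2 highest and 2 lowest organellar ratios (at least 50 reads) in each comparison with Col-0, any member past 4 fold, the 3 families whose copy shares differed most, and members with known developmental mutants. Other genes named were chosen after their values were seen. Promoter windows were read from the TAIR10.1 genome at annotated gene starts. A position is called repeated when its word of 30 bases occurs elsewhere in the genome. The alternatives changed the library size, the bases counted, the treatment of reads at the same position, the minimum of reads, the members or classes kept, and the test.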

Additional observations from a re-analysis of the deposited data

Results flagged for a closer look

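In 3 of 6 pairs of a ribosome class and an added mutation, the medians had opposite signs in the 2 backgrounds, and none of these differences was tested. For *suvr5-1*, the cytosolic median log2 ratio was 0.39 in the *ldl1-2 ldl2* background (triple mutant against *ldl1-2 ldl2*) and -0.10 in wild type (*suvr5-1* against Col-0). With all nuclear reads as library size the value in wild type was 0.15, so the signs no longer differed. For the same mutation the plastid median was -0.34 in the *ldl1-2 ldl2* background and 0.22 in wild type. For *ldl1-2 ldl2*, the mitochondrial median was 0.055 in the *suvr5-1* background (triple mutant against *suvr5-1*) and -0.22 in wild type. The value of 0.055 turned to -0.21 with all nuclear reads as library size, to -0.05 with median-of-ratios size factors and to -0.15 with each position counted once. The other 3 pairs kept 1 sign. For *ldl1-2 ldl2* the cytosolic medians were -0.04 in the *suvr5-1* background and -0.50 in wild type, and the plastid ones -0.90 and -0.37. For *suvr5-1* the mitochondrial medians were 0.51 in the *ldl1-2 ldl2* background and 0.13 in wild type. Each of the 4 libraries enters every one of these pairs. For a gene, the difference between the 2 backgrounds is the same contrast of the 4 libraries for either mutation. The 6 pairs are therefore not separate results.

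Reads on the chloroplast genome were not part of the comparisons, and 16 ribosomal protein genes encoded there had reads in every library. They had 43254 reads in the triple mutant (5.26% of chloroplast reads), 37239 in *ldl1-2 ldl2* (3.35%) and 56551 in *suvr5-1* (4.90%), against 50895 in Col-0 (5.55%). Of these, rps14 alone took 3.23% of chloroplast reads in the triple mutant, 1.77% in *ldl1-2 ldl2* and 2.14% in *suvr5-1*, against 2.47% in Col-0. The other 15 genes took 2.04%, 1.58% and 2.76% in these mutants, against 3.09% in Col-0. The order of the libraries depended on the scale, since per reads on genes of the stretches the 16 genes together were lowest in *suvr5-1* and highest in Col-0, and the other 15 were lowest in the triple mutant and highest in Col-0. The libraries were selected for poly(A), and how this acted on chloroplast RNA was not tested. The inverted repeat held no read start, so genes lying in it could not be counted.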

How the results depend on the processing

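No paired analysis was possible because each genotype has 1 library, and for the same reason no library could be left out. With all nuclear reads as library size the cytosolic median in *suvr5-1* against Col-0 turned to 0.15 (all genes 0.28), and the plastid one was 0.47. In that comparison 6 cytosolic members were called higher, while calls higher over all genes rose from 1118 to 1981. For the triple mutant against *suvr5-1*, the cytosolic and plastid medians were -0.30 and -1.16, and that of all genes was -0.16. There 12 cytosolic members were called lower, while calls lower over all genes rose from 1044 to 1877. With median-of-ratios size factors the cytosolic medians of the triple mutant were -0.24 against Col-0, -0.14 against *suvr5-1* and 0.24 against *ldl1-2 ldl2*. In the last, 16 cytosolic members were called higher, beside 1373 of all genes. In *suvr5-1* against Col-0, 2 were called lower, beside 1027 of all genes. With protein-coding genes other than the members as library size, the *suvr5-1* median was -0.14 with 2 called lower, beside 1109 of all genes. In the triple mutant against *suvr5-1*, 1 was then called lower, beside 948 of all genes. With each position counted once, the cytosolic median of *ldl1-2 ldl2* was -0.26 (5 called lower, beside 587 of all genes). Those of the triple mutant were then -0.18 against Col-0, -0.17 against *suvr5-1* (plastid -0.67) and 0.065 against *ldl1-2 ldl2*. Against Col-0, 0 cytosolic members were called higher and 2 lower, beside 820 and 632 of all genes. Against *suvr5-1*, 0 were higher and 1 lower, beside 711 and 563. Against *ldl1-2 ldl2*, 3 were higher, beside 620. In *suvr5-1* against Col-0, 0 were called higher, beside 440 of all genes. Counting whole genes, or requiring 100 reads, gave 2 called higher in *suvr5-1*, beside 1134 and 844 of all genes. Narrowed exons gave 2 called higher in the triple mutant against *suvr5-1*, beside 1875 of all genes. Without shared exon bases 2 were called lower in *suvr5-1*, 1 higher in *ldl1-2 ldl2* and 0 lower in the triple mutant against *suvr5-1* (median 0.016). Over all genes these calls numbered 977, 1352 and 853. AT1G29965 then turned to -1.73 in the triple mutant against Col-0. The beta-binomial test called 0 cytosolic members in each comparison. Among alternatives chosen after seeing the data, one took classes from the text alone, which places 54 of the 93 cytosolic members. Of these fewer members, 0 were called lower in *suvr5-1*, 19 in *ldl1-2 ldl2* and 3 in the triple mutant against Col-0. In the triple mutant against *ldl1-2 ldl2*, 13 were called higher (mitochondrial median 0.28). Calls over all genes do not change with the classes. Positions not repeated gave 2 called lower in *suvr5-1*, beside 1021 of all genes. The triple mutant's mitochondrial median against *suvr5-1* turned as given above. Of 141 results of single named genes, 39 lost their call under the beta-binomial test and 27 with each position counted once; over all alternatives 1163 kept their side of the threshold, 14 gained a call, 91 lost it and 1 reversed. The cause of these changes was not tested. Of all medians under the alternatives, 150 were labelled as staying within their spread, 14 as moved and 1 as reversed. These labels do not count every change of sign, since other medians near 0 also changed sign, as given above.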
